A study of Homo sapiens with 6 samples.

Results

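The 44 genes described here are grouped as histone lysine methyltransferases, which write methyl marks on histones, and histone lysine demethylases, which erase them. They were taken by symbol from a table of 17939 genes as 26 writers and 18 erasers, and 42 of them were among the 11533 genes abundant enough to be tested. Counted with them are SETD3, a methyltransferase of actin, JMJD6, a lysyl hydroxylase, and KMT2E, a reader with no known activity of its own. Methyl groups on lysine 4 of histone H3 (H3K4) mark promoters and enhancers, those on H3K36 and H3K79 lie within transcribed genes, and those on H3K9 and H3K27 mark silenced chromatin. Most writers carry a SET domain, whereas erasers are either flavin-dependent amine oxidases (KDM1A, KDM1B) or JmjC-domain oxygenases. In breast tumours the enhancer writers KMT2C and KMT2D are recurrently mutated, and EZH2, the H3K27 writer of Polycomb repressive complex 2 (PRC2), is often abundant in aggressive disease.

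The libraries came from LY2 cells, a tamoxifen-resistant breast cancer cell line that expresses the estrogen receptor, with 3 libraries transfected with a pool of siRNAs against CDK12 (siCDK12) and 3 with a non-targeting pool (siCtrl). CDK12 is the kinase that, with its partner cyclin K, phosphorylates RNA polymerase II during elongation. Both groups were deprived of serum and of the tamoxifen metabolite 4-OHT before transfection, received 30 nmol/L of siRNA and were harvested after 48 h. All 6 libraries come from this 1 line and 1 siRNA pool, so that effects of the pool other than on CDK12 cannot be told apart from effects of CDK12 loss. Levels are given in FPKM, fragments normalised for transcript length and library total, and differences as log2 fold changes of FPKM + 0.1. Only RNA was measured, and neither the enzymes' proteins nor the histone marks were analysed here.

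CDK12 transcript was lower in each siCDK12 library (2.23, 2.83 and 2.44 FPKM) than in any siCtrl library (11.17, 10.7 and 10.3 FPKM). This is a log2 fold change of -2.06 (SE 0.085), with a limma adjusted p of 3.17e-07. The 9 luminal epithelial markers, ESR1 and GATA3 among them, had means between 45.7 and 1971 FPKM, whereas CD3E and KRT14 were at 0 in every library. Of the 9 luminal markers, 4 rose with siCDK12, with log2 fold changes of 0.35 (CDH1), 0.21 (GATA3), 0.19 (KRT18) and 0.18 (KRT8). ESR1 fell (log2 fold change -0.33, limma adjusted p = 0.000187), and the called share was 55.6% against 28.3% of all tested genes. The 5 basal markers summed to 10.32 to 10.61 FPKM with siCDK12 and 9.8 to 10.73 FPKM with siCtrl, most of it ACTA2. TP63 was lower with siCDK12 (1.63 against 2.05 FPKM, log2 fold change -0.32, limma adjusted p = 0.0355), a call lost in 8 of 15 alternatives. The immune markers summed to at most 2.81 FPKM, most of it LYZ. Of the fibroblast markers, COL1A1 was at 7.66 to 11.08 FPKM and higher with siCDK12 (log2 fold change 0.45), while COL1A2, COL3A1, LUM and PDGFRB were at 0.15 FPKM or less, and the part of COL1A1-expressing cells in the results was not tested. The number of genes at 1 FPKM or more lay between 11488 and 11538 per library. Libraries deviated from their group with transcript length, among them siCDK12 replicate 2 and siCtrl replicate 3, and values without siCDK12 replicate 2, in which the longest of these genes stood high, are given beside the results it touches.

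With siCDK12 the RNA levels of most of these enzymes stayed close to the control. Of the 42 tested, 5 rose (KMT2B, DOT1L, PHF8, KDM6B and KDM8), 1 fell (SETD3) and 36 did not pass the test (limma, Benjamini-Hochberg adjusted p under 0.05 over all genes tested). The called share was 14.3%, below the 28.3% of all tested genes (16.1% of all tested genes rose and 12.3% fell). At an unadjusted p under 0.05 there were 13 of the 42, of which 12 were higher. Over all 11533 tested genes there were 4625, of which 2723 were higher. No overlap between the groups was seen for 16 of the 42, 15 of them higher with siCDK12 and 1 lower. The share in either direction was 38.1% against 43.1% of all tested genes. Of the 11533 tested genes, 2927 were higher without overlap and 2049 lower without overlap. In each of the 6 called genes the groups did not overlap, and the exact two-sided permutation test of such a pattern gives p = 0.1, the smallest that 3 against 3 libraries allow.

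The changes that were seen were small. The median absolute log2 fold change was 0.08 over the 42 genes and 0.10 over all tested genes, and the largest was 0.34 for KDM8. A change of at least 0.25 was measured in 1 of the 42 (2.38%) against 17.5% of all tested genes, and none reached 0.5, which 433 of all tested genes (3.75%) did. The 95% interval lay wholly within ±0.25 in 28 of the 42 (66.7% against 52.3% of all tested genes) and within ±0.5 in 40, the exceptions being KDM8 and SMYD3. Log2 fold changes were above 0 in 34 of 42 (81.0%) against 58.5% of all tested genes, with medians of 0.08 and 0.03. Without siCDK12 replicate 2 the share above 0 was 69.0% against 57.8% of all tested genes, and both medians were 0.03. With median-ratio scaling the share was 61.9% against 51.0% of all tested genes.

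**Figure D1:**
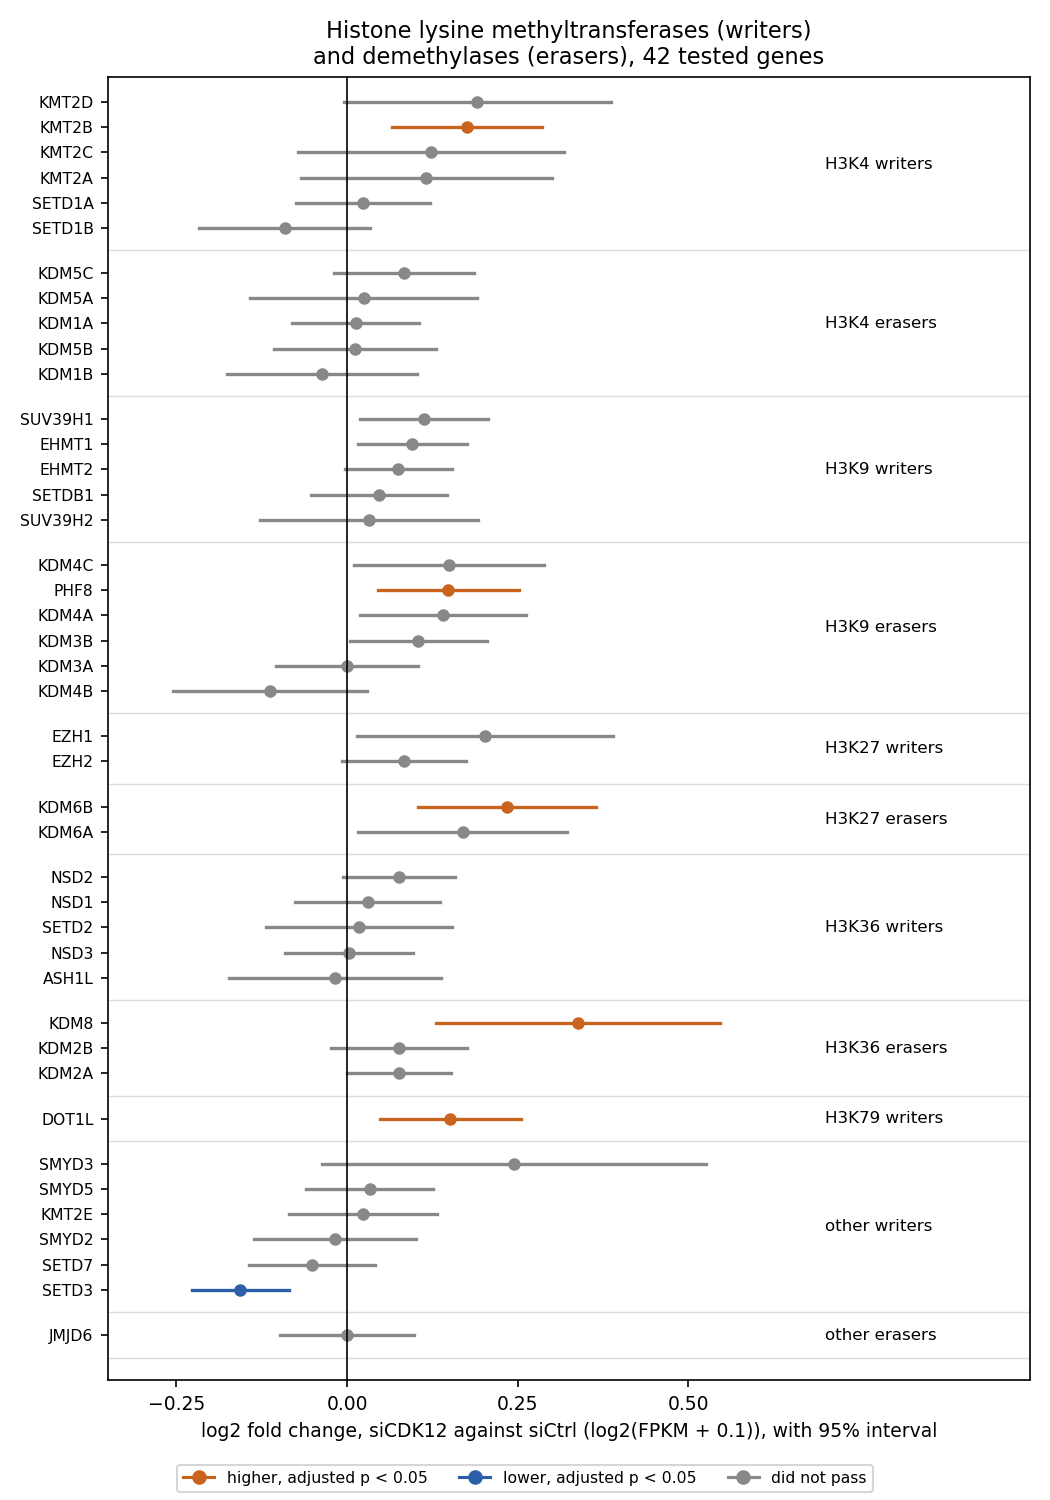
Log2 fold change of each of the 42 tested enzymes, siCDK12 against siCtrl on log2(FPKM + 0.1), grouped by the histone lysine they act on; points are estimates, bars their 95% intervals, and colours mark genes that passed the test. Of 42 points, 5 are coloured as higher and 1 as lower, and every point lies between -0.16 and 0.34.

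The 6 main H3K4 writers, the catalytic subunits of the COMPASS and MLL complexes, had log2 fold changes from -0.09 (SETD1B) to 0.19 (KMT2D), and 1 rose. KMT2B, the MLL-family writer that holds H3K4 trimethylation at CpG-rich promoters, stood at 14.69, 15.67 and 14.19 FPKM with siCDK12 and at 13.15, 13.36 and 12.86 FPKM with siCtrl. All siCDK12 values were above all siCtrl values, by 13.2% in the means (14.85 ± 0.753 against 13.12 ± 0.251, SD, n = 3). KMT2B thus rose by 0.18 on the log2 scale (SE 0.050, limma adjusted p = 0.0235). The call was lost without siCDK12 replicate 2 (adjusted p = 0.0875) and without siCtrl replicate 3 (adjusted p = 0.0629). KMT2B lies on chromosome 19 (35718003 to 35738878, GRCh38.p14), where its model overlaps that of IGFLR1.

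KMT2B is itself a reader of the sequence it acts on, since its CXXC domain binds unmethylated CpG, as do those of KMT2A, KDM2A and KDM2B. The 250 bases before its start site (RefSeq, GRCh38.p14, chr19:35717753-35718002, + strand) held 40 CG pairs and are shown because the called H3K4 writer has a CpG-rich start. Capitals mark each CG, which reads the same on both strands.
KMT2B: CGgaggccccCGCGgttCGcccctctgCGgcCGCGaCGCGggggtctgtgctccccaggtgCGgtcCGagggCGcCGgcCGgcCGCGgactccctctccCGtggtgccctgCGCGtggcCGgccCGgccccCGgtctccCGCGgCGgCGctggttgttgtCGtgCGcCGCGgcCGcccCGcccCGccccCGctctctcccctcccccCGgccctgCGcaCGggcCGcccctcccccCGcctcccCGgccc
Such starts are common among these enzymes. RefSeq promoter sequences were matched for 40 of the 44 genes (DOT1L, NSD3, JMJD6 and SETD1B were not), and the median number of CG pairs in the 250 bases was 23, against 21 in 9527 tested genes and 11 in all 27305 promoters of the table. At least 20 CG pairs were found in 27 of the 40 (67.5%), against 57.6% of tested genes and 32.1% of all promoters. The range ran from 1 in PHF8, whose start site in the table lies within its gene model, to 50 in KDM7A and NSD2.

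Among the other H3K4 writers the means differed by less than the libraries did. KMT2D, which methylates H3K4 at enhancers, stood at 7.96, 10.38 and 8.42 FPKM with siCDK12 and at 7.36, 8.14 and 7.77 FPKM with siCtrl. Its value in siCDK12 replicate 2 was far above the other 5, and the groups overlapped. KMT2D differed by 0.19 on the log2 scale (95% interval 0.00 to 0.39, limma adjusted p = 0.133) and 0.08 without that library. KMT2A and KMT2C had the same library on top (7.20 and 5.83 FPKM), with log2 fold changes of 0.12 each and of 0.02 and 0.03 without it. KMT2C has near-identical copies elsewhere in the genome, so that its share of reads is uncertain. SETD1A and SETD1B, which provide most H3K4 trimethylation in mammalian cells, differed by 0.02 and -0.09, and neither passed.

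None of the 5 H3K4 erasers passed the test with limma, and none had an unadjusted p under 0.05. KDM1A (LSD1), the amine oxidase of the CoREST complex and the most abundant of them, stood at 35.65 ± 0.185 FPKM against 35.36 ± 1.75 FPKM. Its log2 fold change was 0.01, with a 95% interval from -0.08 to 0.11. The JmjC erasers of H3K4 trimethylation KDM5A, KDM5B and KDM5C differed by 0.02, 0.01 and 0.08, and KDM1B, which acts in gene bodies and in oocytes, by -0.04.

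The 5 tested H3K9 writers had log2 fold changes between 0.03 and 0.11, and none passed. SUV39H1, which trimethylates H3K9 in pericentromeric heterochromatin, and EHMT1 (GLP), which dimethylates H3K9 together with EHMT2 (G9a), had unadjusted p-values under 0.05 (0.0228 and 0.0230) but limma adjusted p-values of 0.0708 and 0.0712. EHMT1 was at 29.49, 30.03 and 30.11 FPKM against 27.78, 27.82 and 28.25 FPKM, and EHMT2 at 53.81, 53.17 and 51.51 FPKM against 49.08, 50.35 and 51.01 FPKM. The groups did not overlap in SUV39H1, EHMT1 or EHMT2, with log2 fold changes of 0.11, 0.10 and 0.08. No overlap, in either direction, was also seen in 43.1% of all tested genes. SETDB1 and SUV39H2 were at 0.05 and 0.03 with overlapping groups. SUV39H1 passed in 1 alternative, without siCtrl replicate 3 (adjusted p = 0.0444). SETDB2 was too low to be tested, at 0.59, 0.92 and 0.84 FPKM against 0.84, 0.67 and 0.99 FPKM.

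Of the 6 H3K9 erasers 1 rose. PHF8, a JmjC enzyme that binds H3K4 trimethylation at promoters and removes H3K9 and H4K20 methylation, stood at 13.98, 14.39 and 14.00 FPKM with siCDK12. Its siCtrl libraries were at 12.26, 13.20 and 12.75 FPKM, all below the siCDK12 values. PHF8 rose by 0.15 on the log2 scale (SE 0.047, limma adjusted p = 0.0370), a difference of 10.9% in the means (14.12 ± 0.231 against 12.74 ± 0.470). It was lost in 8 of 16 alternatives, among them median-ratio scaling, quantile normalization and all libraries left out in turn except siCtrl replicate 2, with adjusted p from 0.0353 to 0.111. PHF8 lies on chromosome X (53936680 to 54048936) and its model overlaps no other protein-coding gene.

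The KDM4 enzymes, which remove H3K9 and H3K36 trimethylation, had estimates of both signs, and none passed. KDM4C (0.15) and KDM4A (0.14) had unadjusted p-values of 0.0370 and 0.0275 and did not pass after adjustment, though each passed in 1 alternative. KDM4B, an estrogen-responsive cofactor of the estrogen receptor, was at 7.66, 7.49 and 8.25 FPKM against 7.85, 8.55 and 8.94 FPKM, a log2 fold change of -0.11 (95% interval -0.25 to 0.03). Its interval and that of KDM4C (0.01 to 0.29) share only a narrow stretch, and the difference between these genes was not tested. KDM3B, which removes H3K9 mono- and dimethylation, was at 0.10 with an unadjusted p of 0.0428 and an adjusted p of 0.111, and the hypoxia-induced KDM3A was at 0.00 (95% interval -0.10 to 0.10).

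On H3K27 the called gene was an eraser. KDM6B (JMJD3), the inducible JmjC enzyme that removes H3K27 trimethylation, stood at 14.67, 15.41 and 14.50 FPKM with siCDK12 against 12.97, 13.39 and 11.57 FPKM with siCtrl. The lowest siCDK12 library was above the highest siCtrl library. Its mean was 14.86 ± 0.484 against 12.64 ± 0.953 FPKM, 17.5% higher, which is 0.23 on the log2 scale (SE 0.059, limma adjusted p = 0.0142). The call was lost in 1 of 16 alternatives, without siCDK12 replicate 2 (adjusted p = 0.0521). KDM6B lies on chromosome 17 (7834217 to 7854796).

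KDM6A (UTX), the X-linked paralogue that sits in the KMT2C and KMT2D complexes, was lower in level than KDM6B and showed a similar difference. It stood at 4.55, 4.21 and 4.40 FPKM against 4.05, 3.83 and 3.79 FPKM, with no overlap between groups, as in 43.1% of all tested genes. KDM6A differed by 0.17 on the log2 scale (unadjusted p = 0.0338, limma adjusted p = 0.0932), so it did not pass. KDM7A, listed with the H3K27 erasers and also active on H3K9, was too low to be tested (0.52, 0.41 and 0.43 against 0.49, 0.64 and 0.46 FPKM).

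The H3K27 writers EZH2 and EZH1, alternative catalytic subunits of PRC2, were both higher in each siCDK12 library than in any siCtrl library, and neither passed. Groups without overlap, in either direction, were found in 43.1% of all tested genes. EZH2, which follows proliferation, was at 25.09, 25.93 and 25.06 FPKM against 23.30, 24.78 and 23.73 FPKM, a log2 fold change of 0.08 (limma adjusted p = 0.155). EZH1, the form of non-dividing cells, was at 4.11, 4.24 and 4.68 FPKM against 3.40, 3.90 and 4.0 FPKM, a log2 fold change of 0.20 (adjusted p = 0.0994). EZH2 exceeded EZH1 in level in all 6 libraries.

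The H3K36 writers lay close to the control. SETD2, which trimethylates H3K36 behind elongating RNA polymerase II, stood at 10.12, 11.88 and 11.31 FPKM with siCDK12 against 10.76, 11.25 and 10.82 FPKM with siCtrl. Its log2 fold change was 0.02 (95% interval -0.12 to 0.15), with overlapping groups. The dimethylating enzymes NSD1, NSD2 and NSD3 differed by 0.03, 0.08 and 0.00, and ASH1L by -0.02. NSD2 was the second most abundant of the 44 genes, at 57.35 FPKM in siCtrl. With limma 0 of the 5 H3K36 writers passed, and none had an unadjusted p under 0.05.

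Of the 3 H3K36 erasers 1 rose, and it was the one with the largest change in the whole family. KDM8 (JMJD5), a JmjC protein first described as an H3K36 demethylase and whose histone activity is disputed, stood at 3.05, 3.06 and 3.58 FPKM against 2.34, 2.66 and 2.59 FPKM. The groups did not overlap, and the mean was 27.7% higher (3.23 ± 0.303 against 2.53 ± 0.168). On the log2 scale KDM8 rose by 0.34 (SE 0.095, limma adjusted p = 0.0222). KDM8 was the least abundant of the 42, and its call was lost with no filter on low values (adjusted p = 0.0546), without siCDK12 replicate 3 (0.0928) and without siCtrl replicate 1 (0.0733). The CpG-binding KDM2A and KDM2B were both at 0.08 and did not pass. Each had groups that did not overlap, as did 43.1% of all tested genes.

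DOT1L, the only H3K79 methyltransferase and one without a SET domain, rose. It stood at 13.75, 14.05 and 13.98 FPKM with siCDK12 against 12.32, 13.09 and 12.20 FPKM with siCtrl. The siCDK12 libraries lay closer together than the siCtrl libraries and all above them (13.93 ± 0.157 against 12.54 ± 0.483, 11.1% higher). On the log2 scale the rise was 0.15 (SE 0.047), with a limma adjusted p of 0.0345, and the call was lost in the same 8 of 16 alternatives as that of PHF8, with adjusted p from 0.0304 to 0.0975. DOT1L lies on chromosome 19 (2163933 to 2232578), where its model overlaps those of AP3D1 and PLEKHJ1.

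**Figure D2:**
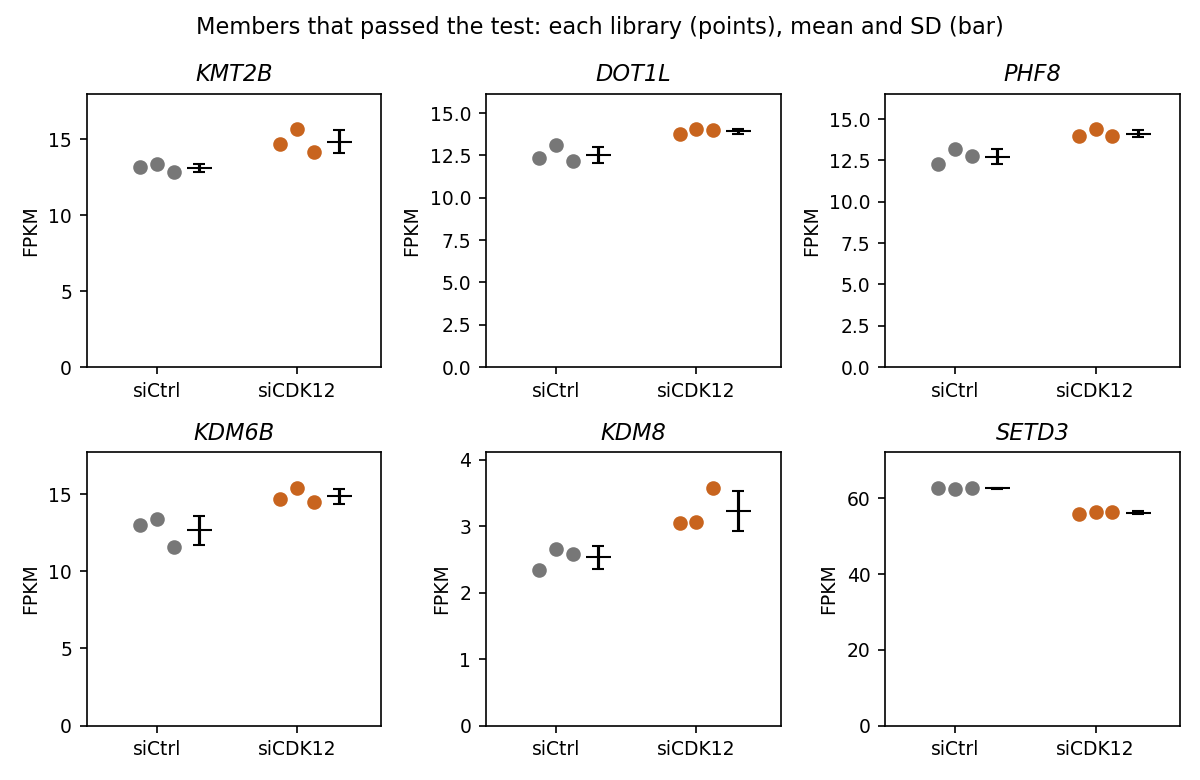
FPKM of the 6 enzymes that passed the test in each library (points), with the group mean and SD (n = 3) beside them; every axis starts at 0. The siCDK12 points lie above the siCtrl points in KMT2B, DOT1L, PHF8, KDM6B and KDM8 and below them in SETD3 (55.84 to 56.46 against 62.55 to 62.79 FPKM).

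The fall came from the most abundant gene of the family. SETD3, a SET-domain protein first described on histone H3 and now known as the methyltransferase of a histidine in actin, stood at 55.84, 56.46 and 56.33 FPKM with siCDK12 against 62.60, 62.55 and 62.79 FPKM with siCtrl. Both groups were tight and well apart, with means of 56.21 ± 0.327 and 62.65 ± 0.127 FPKM, a fall of 10.3%. Its log2 fold change of -0.16 (SE 0.032, limma adjusted p = 0.00478) passed in 16 of 16 alternatives, with adjusted p from 0.00204 to 0.0210. In a bulk library, fewer cells of a kind and less RNA per cell cannot be told apart.

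SETD3 has as its head-to-head neighbour CCNK, the gene of cyclin K, the partner without which CDK12 is inactive. On chromosome 14 the start sites in RefSeq (GRCh38.p14) are at 99480859 for SETD3, read from the minus strand, and at 99481409 for CCNK, read from the plus strand, with 549 bases between them. CCNK stood at 68.53, 68.67 and 68.96 FPKM with siCDK12 against 63.04, 63.69 and 61.96 FPKM with siCtrl, so that the neighbours moved in opposite directions. CCNK rose by 0.13 on the log2 scale (SE 0.032, limma adjusted p = 0.0141), a call lost only without siCDK12 replicate 3 (adjusted p = 0.0504), and CCNK was singled out after its values were seen. The full gene models overlap by 5050 bases, and whether reads were counted by strand is not given in the sources used here, so that reads in that stretch may be shared.
The 250 bases before each start are shown because these neighbours face each other across 1 stretch of DNA, at chr14:99480860-99481109 for SETD3 (minus strand) and chr14:99481159-99481408 for CCNK (plus strand). Each is written from its own strand with every CG in capitals.
SETD3: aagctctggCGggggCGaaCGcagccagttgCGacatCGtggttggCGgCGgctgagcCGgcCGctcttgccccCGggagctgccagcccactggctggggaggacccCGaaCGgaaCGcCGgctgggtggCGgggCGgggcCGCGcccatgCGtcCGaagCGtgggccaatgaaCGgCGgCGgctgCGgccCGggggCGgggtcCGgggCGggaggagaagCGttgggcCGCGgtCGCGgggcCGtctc
CCNK: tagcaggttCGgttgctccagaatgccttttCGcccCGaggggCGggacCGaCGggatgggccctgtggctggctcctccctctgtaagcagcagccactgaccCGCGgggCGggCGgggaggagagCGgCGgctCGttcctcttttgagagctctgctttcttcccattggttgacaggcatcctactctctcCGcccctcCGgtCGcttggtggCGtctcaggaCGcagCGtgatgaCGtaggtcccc
They held 35 and 20 CG pairs, with a GC content of 77.2% and 65.2%.

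The other enzymes with no single histone lysine did not pass. SMYD3, which methylates the kinase MAP3K2, had the widest interval of the family, with 3.42, 4.23 and 4.72 FPKM against 3.06, 4.06 and 3.26 FPKM and a log2 fold change of 0.24 (95% interval -0.04 to 0.53). SETD7 (-0.05), SMYD2 (-0.02), SMYD5 (0.03) and KMT2E (0.02), an H3K4 trimethylation reader with no known activity of its own, lay close to 0. JMJD6, a lysyl hydroxylase counted among the erasers, had the same mean in both groups (16.35 FPKM) and a 95% interval from -0.10 to 0.10.

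Summed over the enzymes of a lysine, transcript levels differed by 2.45% (H3K4 erasers) to 15.5% (H3K27 erasers) between the group means for lysines 4, 9, 27 and 36. These sums are a description, dominated by the most abundant genes. The H3K9 erasers summed to 76.71 ± 0.966 FPKM with siCDK12 and 72.46 ± 0.691 FPKM with siCtrl, and the H3K9 writers to 135.1 ± 2.34 and 127.9 ± 2.18 FPKM, so that their ratio was 1.76 and 1.77. On H3K27 the erasers went from 17.06 ± 1.09 FPKM in siCtrl to 19.7 ± 0.352 FPKM in siCDK12 and the writers from 27.7 ± 0.990 to 29.7 ± 0.486 FPKM. The ratio of H3K27 writers to erasers was 1.51 ± 0.0297 with siCDK12 and 1.63 ± 0.116 with siCtrl. The H3K4 ratio was 0.877 against 0.862 and the H3K36 ratio 1.97 against 2.03. Over all 44 genes, writers exceeded erasers 2.07-fold (SD 0.0203) with siCDK12 and 2.13-fold (SD 0.0281) with siCtrl. This total includes the 6 writers with no single histone lysine, SETD3 and KMT2E among them. Those 6 summed to 166.2 ± 2.75 FPKM with siCDK12 and 172.1 ± 1.23 FPKM with siCtrl, out of 544.2 and 532.5 FPKM for all writers. The ratio over all 44 genes is therefore not a measure of histone lysine writers alone.

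**Figure D3:**
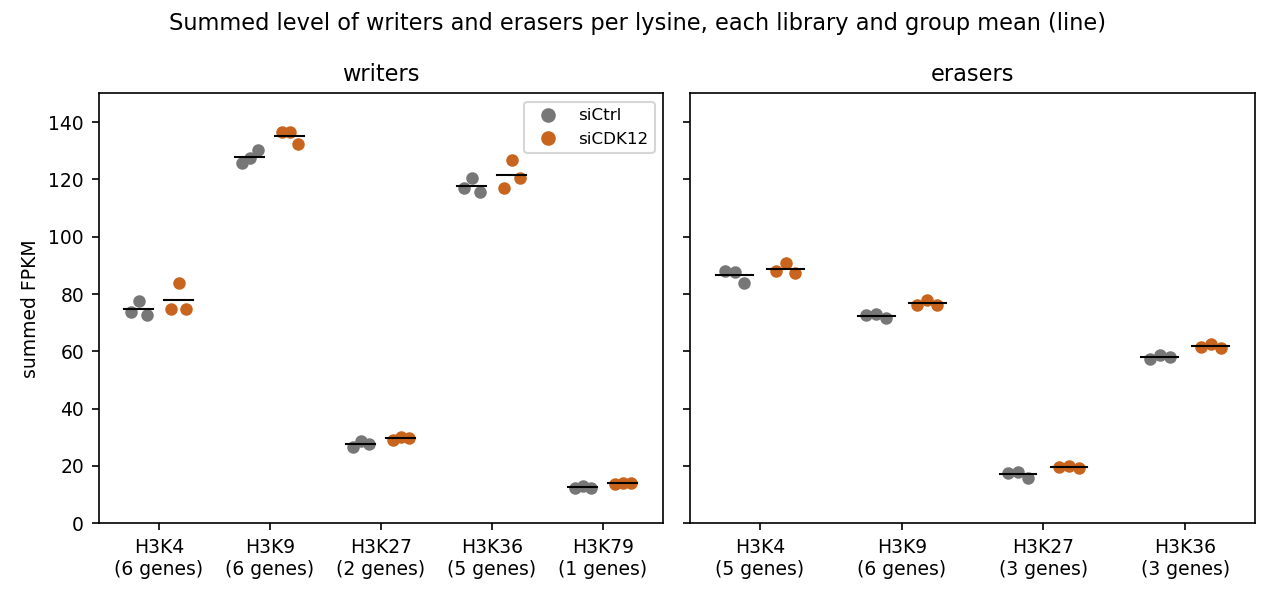
Summed FPKM of the writers and of the erasers of each lysine in the 6 libraries (points), with group means as lines; the number of genes summed stands under each lysine. The siCDK12 points lie above all siCtrl points for the writers of H3K9, H3K27 and H3K79 and the erasers of H3K9, H3K27 and H3K36, and overlap them for H3K4 and for the H3K36 writers.

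In the control cells, levels ran over a wide range. SETD3 (62.65 FPKM), NSD2 (57.35 FPKM), EHMT2 (50.15 FPKM), KDM2A (43.23 FPKM) and KDM1A (35.36 FPKM) led, each apart from the next by more than the SD of either. At the low end, KDM8 (2.53 ± 0.168 FPKM), KDM5A (3.35 ± 0.090 FPKM), SMYD3 (3.46 ± 0.529 FPKM) and EZH1 (3.77 ± 0.322 FPKM) were above SETDB2 and KDM7A, and neighbours among the last 3 of these 4 did not differ beyond their spread. FPKM is per length of transcript, so that these levels can be set side by side between genes.

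Loss of CDK12 is known for its effect on long genes, and several of these enzymes are long. Across the 42 genes the log2 fold change had a correlation near 0 with the span of the gene (Spearman rho -0.02, and -0.05 across 11527 tested genes) and with the length of the canonical transcript (rho -0.02, and -0.01 across 11126 tested genes), a description across genes that share libraries. Without siCDK12 replicate 2, rho with transcript length was -0.20 across the 42 genes and -0.08 across all tested genes. SMYD3, with the span of 757.9 kb, and KDM4C, with 454.8 kb, had log2 fold changes of 0.24 and 0.15 and did not pass.

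Transcript length did track the deviation of single libraries from their group. The deviation of siCDK12 replicate 2 from the other 2 siCDK12 libraries rose with transcript length over the 42 genes (rho 0.57, and 0.34 across all tested genes). Deviations within a group are tied to each other, since each library is set against the other 2. In the other direction went siCDK12 replicate 1 (-0.41, and -0.18 across all tested genes) and siCDK12 replicate 3 (-0.22, and -0.18 across all tested genes). Among the siCtrl libraries, replicate 3 was at -0.38 (-0.37 across all tested genes) and replicate 2 at 0.37 (0.19 across all tested genes). The siCtrl replicate 1 was at 0.08 (0.20 across all tested genes). For the 7 genes with a transcript of at least 10 kb the median deviation of siCDK12 replicate 2 was 0.21, against 0.05 for the 35 shorter ones. It reached 0.28, 0.29 and 0.34 in KMT2A, KMT2C and KMT2D. Across all tested genes of at least 10 kb, 440 in number, that median was 0.10.

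**Figure D4:**
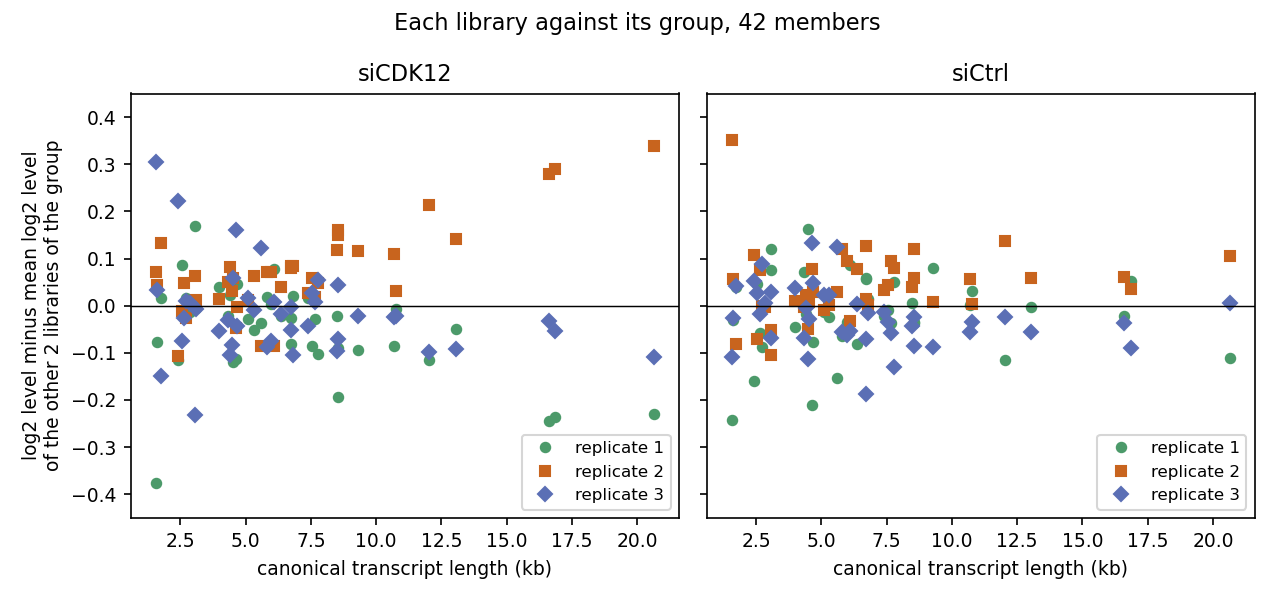
For each of the 42 genes, the log2 level in 1 library minus the mean log2 level of the other 2 libraries of its group, against canonical transcript length in kb, with 1 symbol per replicate. In siCDK12 the squares of replicate 2 climb to 0.34 at the longest transcript (KMT2D), where replicate 2 of siCtrl lies at 0.10.

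Transcripts of proteins that hold these enzymes in complexes or read their marks were called in 12 of 54 genes tested (22.2%, 8 higher and 4 lower), beside 28.3% of all tested genes. Over 9 lists of partners, readers and related enzymes together, 76 of 78 genes were tested, of which 12 rose and 8 fell (26.3% against the 28.3% of all tested genes), with a median log2 fold change of 0.01. Of the 12 COMPASS and MLL partners, HCFC1 rose (0.14) and PAGR1, a subunit of the KMT2C and KMT2D complexes, fell from 30.34 to 25.70 FPKM (-0.24, limma adjusted p = 0.00153). WDR5, RBBP5, ASH2L and DPY30, the core shared by all COMPASS complexes, were at -0.06, 0.07, 0.11 and -0.01 and did not pass.

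Of the 9 PRC2 partners, PHF19, which links PRC2 to H3K36 methylation and is also the 1 called gene of 6 H3K36 readers, rose from 34.84 to 39.81 FPKM (0.19, limma adjusted p = 0.0166), a call lost in 4 of 16 alternatives. The core subunits SUZ12 and EED were at -0.02 and 0.16 and did not pass. The called shares were 11.1% of the PRC2 partners and 37.5% of the 8 KDM1 partners tested, against 28.3% of all tested genes. Of the KDM1 partners, GSE1 and HMG20B rose by 0.15 and 0.11. GLYR1, the nucleosome-binding cofactor of KDM1B, fell from 59.73 ± 1.75 to 47.45 ± 0.375 FPKM (-0.33, adjusted p = 9.93e-05), while KDM1B itself was at -0.04.

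Partners of H3K9 methylation included 3 called genes of 9: the EHMT1 and EHMT2 partners ZNF644 (0.22) and WIZ (0.14) rose, and CBX5, which encodes the H3K9 reader HP1 alpha, fell (-0.14). In PRC1.1, PCGF1 rose (0.18) and RYBP fell (-0.17) among 8 genes. Of the 4 DOT1L partners MLLT1 (ENL), a subunit shared with elongation complexes, rose from 24.87 to 28.79 FPKM (0.21, limma adjusted p = 0.00229). The calls of PAGR1, GLYR1, ZNF644 and MLLT1 held in all 16 alternatives, whereas those of HCFC1, WIZ, CBX5, HMG20B and RYBP were each lost in 9 or 10.

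**Figure D5:**
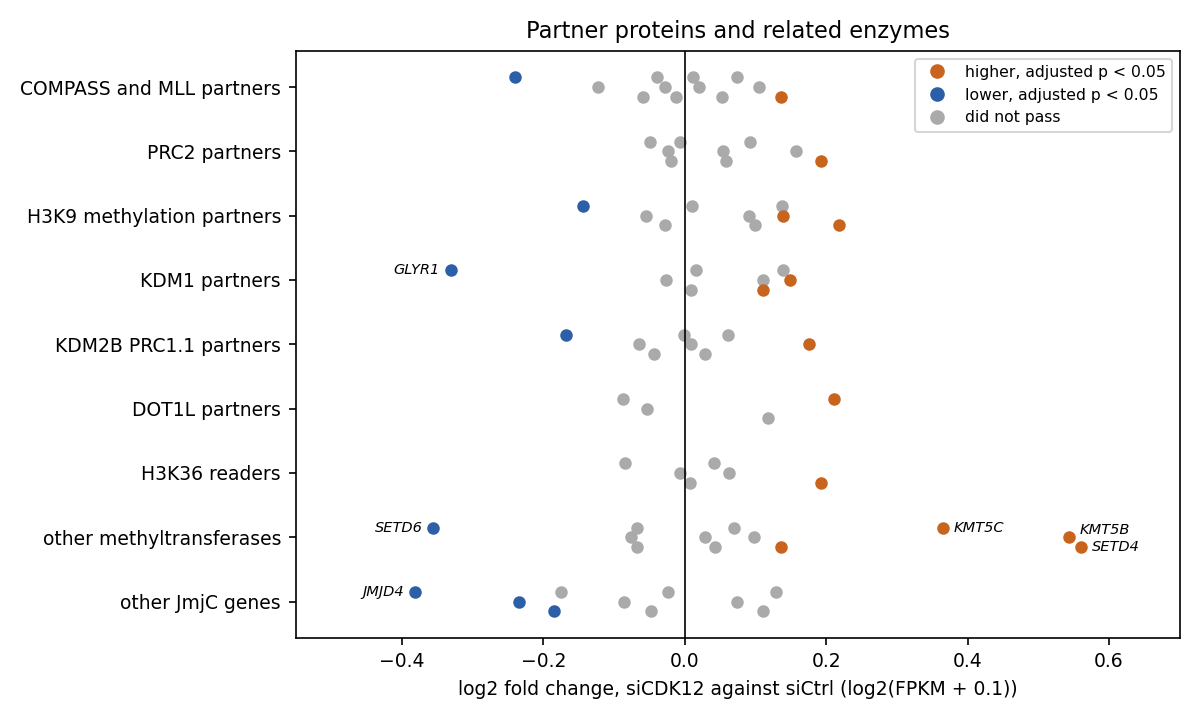
Log2 fold change of each tested partner, reader or related enzyme (points), siCDK12 against siCtrl on log2(FPKM + 0.1), by list; PHF19 and MTF2 each stand in 2 lists and points are spread vertically for legibility. KMT5B, SETD4 and KMT5C lie furthest to the right (0.54, 0.56 and 0.36) and JMJD4, SETD6 and GLYR1 furthest to the left (-0.38, -0.36 and -0.33).

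A list of 12 other methyltransferases held 3 log2 fold changes above the highest among the 44 genes. Of these 12, 4 rose and 1 fell, a called share of 41.7% beside 28.3% of all tested genes. The list was chosen with earlier results of these data known, so that this share is a description only. KMT5B, SETD4 and KMT5C are named as the 3 with the smallest p. KMT5B, which writes H4K20 di- and trimethylation, stood at 21.35, 22.52 and 21.94 FPKM with siCDK12 against 15.62, 15.28 and 14.18 FPKM with siCtrl, a log2 fold change of 0.54 (SE 0.049, limma adjusted p = 2.94e-05). Its paralogue KMT5C, which shares that activity, was at 17.90, 19.33 and 18.99 FPKM against 13.34, 15.62 and 14.70 FPKM (0.36, adjusted p = 0.00137). KMT5A, which writes the monomethyl mark on which both act, was at 0.10 and did not pass.

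SETD4 rose as well, at 5.59, 5.91 and 5.08 FPKM against 3.61, 3.41 and 4.14 FPKM (log2 fold change 0.56, limma adjusted p = 0.000990). SETD5 rose by 0.14 and SETD6, a methyltransferase of the NF-kB subunit RelA, fell by 0.36 on the log2 scale, and these were named after their values were seen. Among 10 other JmjC genes tested, 3 fell and 0 rose with limma (30.0% called against 28.3% of all tested genes, of which 12.3% fell), and none was higher at an unadjusted p under 0.05. They were JMJD4 (-0.38, adjusted p = 0.000408), JMJD8 (-0.23) and HR (-0.18), of which JMJD4 hydroxylates a translation release factor and HR is a nuclear receptor corepressor with a JmjC domain. The calls of KMT5B, KMT5C, SETD4, SETD6, JMJD4 and JMJD8 held in every alternative in which the gene was tested, SETD5 was lost in 8 of 16 and HR in 2 of 16.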

How the data were processed

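RNA of LY2 cells was sequenced in 6 libraries, 3 per group, which the study calls biological replicates. Per the labels and the study's methods, the authors cleaned reads with SOAPnuke, aligned them with Bowtie2 to GRCh38 and quantified genes with RSEM, and they deposited FPKM per gene and library. The authors ran DESeq2 on read counts, which were not used here. FPKM keeps no depth, so no counting interval was given.

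Tests covered the 11533 of 17939 genes whose 6-library mean was 1 FPKM or more, and were run with limma 3.58.1 (R 4.3.3) on log2(FPKM + 0.1) with a variance trend, two-sided, without covariates, with Benjamini-Hochberg adjustment over all of them and a threshold of 0.05. The pseudocount understates changes of low genes. The steps were tested on simulated data. The enzymes, their roles and the other lists were chosen with earlier results of these data known. Values per library are given for each called enzyme, and from other lists for up to 3 called genes with the smallest p. Positions, start sites and sequences came from RefSeq (GRCh38.p14), with positions matched by gene ID. Transcript lengths came from GENCODE, matched by gene symbol. Alternatives were pseudocounts of 1 and 0.01, no filter, a minimum mean of 5 FPKM, equal FPKM sums, quantile normalization, median-ratio scaling, no or robust variance trend, a block for replicate number and leaving out each library. Figures were drawn with matplotlib 3.10.9.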

Additional observations from a re-analysis of the deposited data

How the results depend on the processing

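The fall of SETD3 passed in all 16 alternatives, and no called enzyme changed sign in any. The number of enzymes that rose, 5, was 3 with median-ratio scaling, with quantile normalization and with the replicate block, and between 1 and 5 when each library was left out, with 1 without siCDK12 replicate 2 and 2 without siCDK12 replicate 3. KDM8 was left untested by the filter at 5 FPKM. Of the 36 enzymes that did not pass, 4 (SUV39H1, KDM4A, KDM4C and KDM6A) passed in 1 alternative each, and 14 changed sign in at least 1. Partner genes that rose numbered 6 rather than 12 without the variance trend and 6 to 10 when each library was left out, and those that fell 5 to 8 rather than 8. Over all genes, 1853 rose and 1416 fell, against 1371 and 1683 with median-ratio scaling and 1552 and 1592 with quantile normalization, and between 1209 and 1607 rose when each library was left out. Libraries of the same number did not deviate together (correlations of -0.0029, 0.020 and -0.028, other pairs from -0.096 to 0.096), so the replicate block, which gave 3 higher enzymes, does not rest on a known pairing. Fragment totals per library are not held by FPKM, so that the least abundant genes, KDM8, KDM5A and SMYD3, carry an error that cannot be split into counting and biological parts.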

Other observations

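Some genes of DNA replication rose with siCDK12, in a list whose called share in either direction was near that of all tested genes. Of 26 cell cycle genes tested, 8 rose and 0 fell with limma (9 and 1 by an unadjusted p under 0.05). The called share was 30.8%, all of it higher, beside 28.3% of all tested genes, of which 16.1% rose and 12.3% fell. The median log2 fold change of the list was 0.04. The 8 that rose included the transcription factor E2F1, from 30.29 to 38.26 FPKM (0.34, limma adjusted p = 0.000191), and the replicative helicase subunits MCM6 (0.21) and MCM5 (0.22), and these 3 passed in all 16 alternatives. The other 18 genes did not pass, among them MCM4 (0.06), RRM2 (-0.04) and TYMS (-0.01). EZH2, known to follow proliferation, was at 0.08 and did not pass.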
